A study of Caenorhabditis elegans with 12 samples.

Results

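The histone genes named his were examined in late L4 larvae of Caenorhabditis elegans that lack members of the miR-58 family of microRNAs. Members were the genes whose listed name starts with his- and a digit, which gave 32 of 16309 genes. The mir-58 mutant was strain MT15024, mir-58(n4640) IV. The double mutant was strain MT18409, which carries nDf53 III, by its title the loss of mir-80, together with mir-58(n4640) IV. The quadruple mutant was strain MT15563, which adds nDf54 X, by its title the loss of mir-81-82, to both. Wild type was N2 Bristol, and every group held 3 samples of whole animals. All groups were fed on bacteria with light lysine and arginine and were synchronised by bleaching. The mir-58 mutant and wild type were collected 33 h after transfer to food. The double mutant grows more slowly and was taken 6 h later than wild type, and the quadruple mutant 15 h later, so in both strains genotype and time of collection cannot be told apart.

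Histones package DNA. The core histones H2A, H2B, H3 and H4 form the nucleosome, and the linker histone H1 binds the DNA between nucleosomes. In animals, most core histone genes come in many copies and are transcribed while DNA is being replicated, and their mRNAs end in a stem-loop in place of a poly(A) tail. The H3.3-type genes encode replacement forms of H3 that can be loaded onto DNA outside replication. In C. elegans most core copies stand in small groups in which genes for H2A and H2B, or for H3 and H4, are transcribed away from each other.

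The values are the authors' own log2 fold changes of each mutant over wild type, with adjusted p-values. A gene is said to have risen or fallen where the authors' deposited table gives it an adjusted p under 0.05. Lists of values follow the order mir-58, double mutant, quadruple mutant. Levels per sample were not analysed here, so neither depth nor replicate spread is known and no error can be given. For the same reason only changes of tissue markers, not their levels, are given. In whole animals, fewer cells of a type and less RNA per cell cannot be told apart. Whether replicates were separate cultures is not stated, and the spread behind the p-values may be technical. Use of poly(A) selection, which bears on mRNAs without a tail, is not stated either. The direction of the quadruple mutant's fold changes was checked on T07D1.2, the gene that holds mir-81 and mir-82 in the RefSeq table. It stood at -4.39 in that mutant (from the authors' deposited table, adjusted p = 1.36e-22). The mir-58 and double mutants do not carry nDf54, so this gene cannot check the direction of their fold changes.

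Copies of core histone genes are near-identical, so reads can belong to several of them, and values of single copies are uncertain. The RefSeq table for assembly WBcel235 holds 72 his loci with 72 symbols. In Ensembl release 115 these loci carry 50 symbols, since several loci can carry the same symbol. Each of the 32 members matched a locus that has its symbol to itself. The other 40 loci were not analysed here, and 36 of them share their Ensembl symbol with another locus. How the authors counted reads that match several copies is not given in the sources used here. Coding lengths were the same within each core class and varied among the H3.3-type genes. The 5 H2A genes had 127 residues, the 5 H2B genes 123, the 6 H3 genes 136 and the 9 H4 genes 103. Among the 5 H3.3-type genes, his-71 and his-74 had 136 residues, his-70 had 134 and his-69 had 127, and the longest form of his-72 had 151. The linker gene his-24 had 208. The remaining member, his-39, had 67 residues and was given no class.

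Core histone genes rose in both multiple mutants, 6 of 25 in double and 14 of 25 in quadruple mutants, and none was called in mir-58. Over all 32 his genes, 2 fell and none rose in mir-58, where 5.79% of all listed genes were called lower and 1.65% higher, so the share called was close to that of all genes. In the double mutant 8 of 32 rose and none fell, beside 10.5% called higher and 5.86% called lower. The quadruple mutant had 17 of 32 higher and none lower, beside 14.2% called higher and 9.82% called lower. At an adjusted p under 0.01, 1 member fell in mir-58 (3.71% of all listed genes), 4 rose in the double mutant (8.25%) and 11 in the quadruple mutant (11.1%). The members' median log2 fold change was -0.08 in mir-58 and reached 1.12 in double and 1.49 in quadruple mutants. The medians of all listed genes were -0.06, 0.08 and 0.11 in the same order. In mir-58 14 members lay above 0, in double mutants 31 and in quadruple mutants all 32, beside 43.8%, 54.9% and 55.7% of all listed genes. The 3 comparisons use the same wild-type samples.

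**Figure D1:**
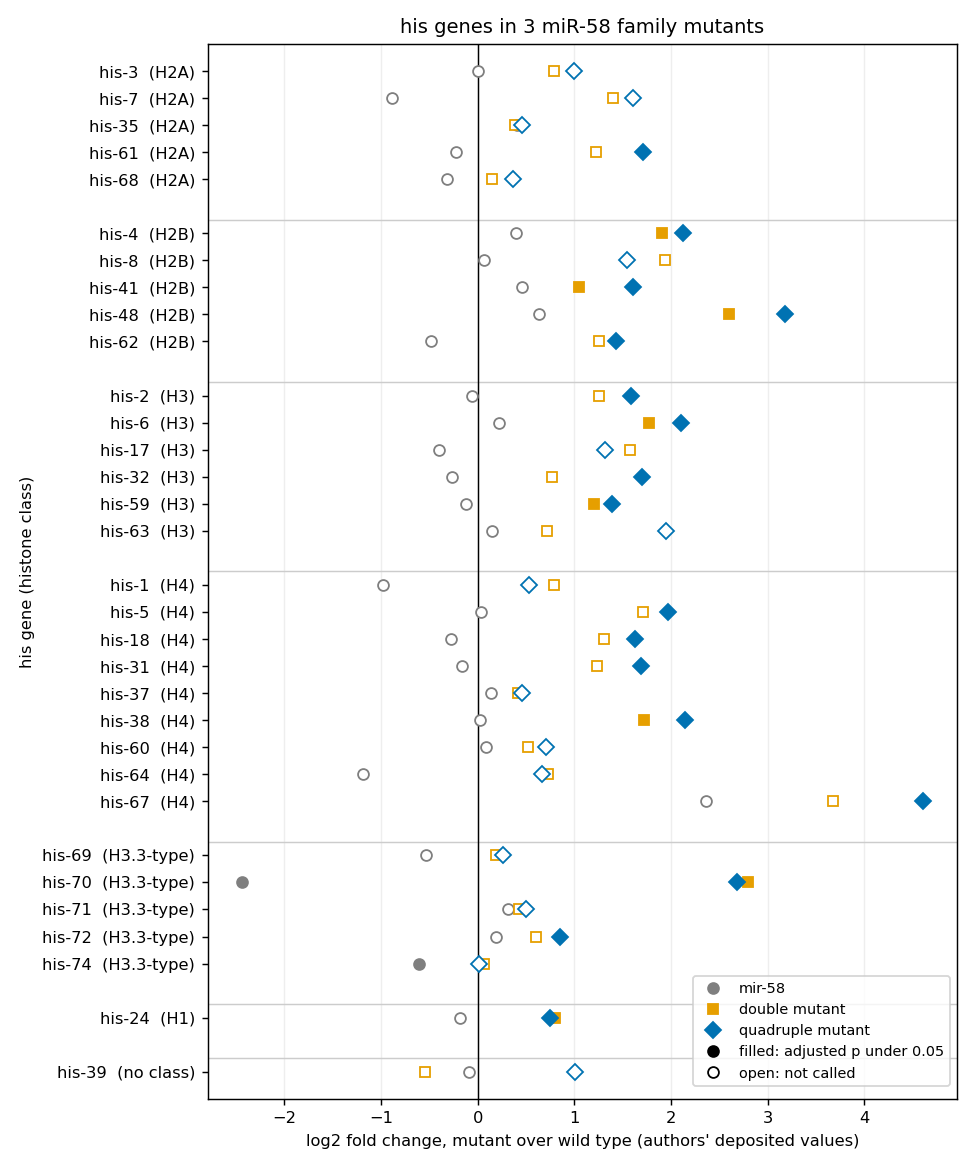
The log2 fold change over wild type (x axis) of each his gene (rows, grouped by histone class) is shown for the mir-58, double and quadruple mutants by symbol and colour. Filled symbols mark an adjusted p under 0.05. In the quadruple mutant all 32 genes lie above 0, and in mir-58 the values lie on both sides of it.

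H2B genes, whose product pairs with H2A, had class medians of 0.40, 1.91 and 1.61. Of 5 H2B genes, 3 rose in double mutants and 4 in quadruple mutants, beside 10.5% and 14.2% of all listed genes called higher. The log2 fold changes of his-48 were 0.63, 2.60 and 3.18 (from the authors' deposited table, adjusted p = 0.891, 0.0177 and 0.00081). Those of his-4 were 0.40, 1.91 and 2.12 (from the authors' deposited table, adjusted p = 0.816, 0.0256 and 0.00586). One of the 3 core members with an intron, his-41, was at 0.46, 1.05 and 1.61 (from the authors' deposited table, adjusted p = 0.132, 0.0193 and 1.25e-05). Its p-value in the quadruple mutant was the lowest of any core member, at a fold change below that of his-63, which was not called. The annotation places another gene, C50F4.6, across his-41 on the same strand, and a noncoding RNA across his-4 on the opposite strand. Strand cannot separate reads of C50F4.6 and his-41 where they overlap. The strand setting of the counts is not given in the sources used here. Whether reads of his-4 and its noncoding RNA were kept apart is therefore not known. The quadruple mutant's value was 1.43 for his-62, which rose, and 1.55 for his-8, which was not called (from the authors' deposited table, adjusted p = 0.0283 and 0.318). A noncoding RNA on the opposite strand also overlaps his-8.

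Of 5 H2A genes, none was called in the double mutant, where 10.5% of all listed genes were called higher. In the quadruple mutant 1 rose, beside 14.2% called higher, and the class median was 1.00. That gene, his-61, stood at -0.22, 1.22 and 1.71 (from the authors' deposited table, adjusted p = 0.886, 0.0869 and 0.00251). Other H2A genes lie in the authors' deposited table between 0.37 (his-68) and 1.61 (his-7) in that mutant. The intron-bearing H2A gene his-35 was nearly level across the mutants, at 0.41, 0.39 and 0.46 (from the authors' deposited table), with no call.

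Of 6 H3 genes, 2 rose in double mutants and 4 in quadruple mutants, beside 10.5% and 14.2% of all listed genes called higher. The class medians were -0.09, 1.23 and 1.64. H3 genes spanned a narrow range in the quadruple mutant, 1.32 to 2.10. Log2 fold changes of his-6 were 0.22, 1.77 and 2.10 (from the authors' deposited table, adjusted p = 0.896, 0.00924 and 0.00036). Those of his-59 were -0.12, 1.2 and 1.39 (from the authors' deposited table, adjusted p = 0.913, 0.0071 and 0.000592). Both were called in each multiple mutant and lay near 0 in mir-58. The authors' deposited table has his-32 at -0.26, 0.77 and 1.70, and it passed the threshold in quadruple mutants (adjusted p = 0.000112) but not in double mutants (adjusted p = 0.276). The difference between those 2 strains was not tested. The remaining call, his-2, had 1.59 in quadruple mutants (from the authors' deposited table, adjusted p = 0.0359). The uncalled members, his-63 and his-17, stood at 1.95 and 1.32 there (from the authors' deposited table, adjusted p = 0.148 and 0.313).

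H4 genes spanned the widest range of the classes in each mutant, with an upper end set by his-67 alone. The next highest H4 values were 0.14 for his-37, then 1.72 and 2.15 for his-38 (from the authors' deposited table). Of 9, 1 rose in double mutants and 5 in quadruple mutants, beside 10.5% and 14.2% of all listed genes called higher. The count in double mutants was thus close to the share of all genes. Class medians were 0.03, 1.24 and 1.63. The largest fold change of any member was that of his-67, at 2.36, 3.68 and 4.61 (from the authors' deposited table, adjusted p = 0.616, 0.0783 and 0.00319). It rose in quadruple mutants, where 0.668% of all listed genes had a higher log2 fold change. On the X chromosome, his-38 was at 0.03, 1.72 and 2.15 (from the authors' deposited table, adjusted p = 1, 0.0271 and 0.000991). Further calls in quadruple mutants were his-5, his-31 and his-18, at 1.97, 1.69 and 1.63 (from the authors' deposited table, adjusted p = 0.0297, 0.0417 and 0.0369). Lowest in the authors' deposited table were his-60, his-64, his-1 and his-37, between 0.46 and 0.71 in quadruple mutants, with no call in any strain. An opposite-strand gene, nstp-10, overlaps his-37 in the annotation.

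A larger fold change did not always go with a call among the members. In the double mutant 17 members lay at a log2 fold change of 1 or more, as did 14.9% of all listed genes, and 10 of the 17 were not called. Of the quadruple mutant's values 21 did, beside 18.6% of all listed genes, and 6 of them were not called. The only members called below 1 were his-24 in the double mutant, and his-24 and his-72 in the quadruple mutant. The smallest called value in double mutants was 0.80 for his-24 and the largest uncalled one was 3.68 for his-67 (from the authors' deposited table, adjusted p = 0.00715 and 0.0783). In the quadruple mutant these were 0.75 for his-24 and 1.95 for his-63 (from the authors' deposited table, adjusted p = 0.0141 and 0.148).

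**Figure D2:**
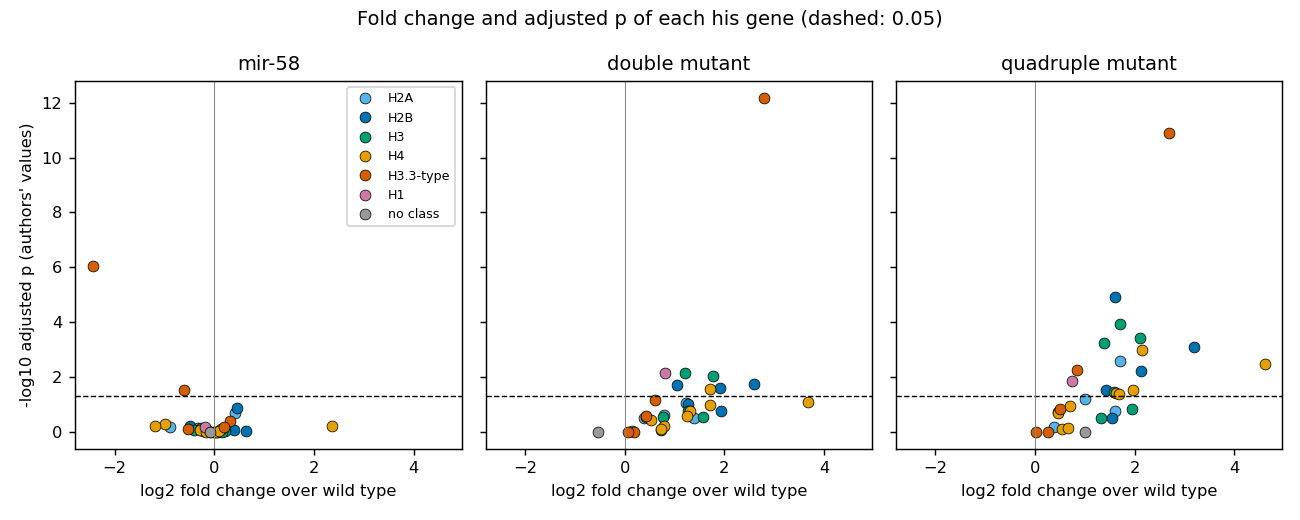
Each point is a his gene, coloured by histone class, with its log2 fold change over wild type (x axis) and the negative log10 of the authors' adjusted p (y axis), in a panel for each mutant; the dashed line is 0.05. The H3.3-type gene his-70 stands apart in all 3 panels, at -2.44, 2.80 and 2.68.

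The H3.3-type genes behaved differently from one another. Of 5, 2 fell in mir-58, 1 rose in double and 2 in quadruple mutants, and the class medians were -0.53, 0.43 and 0.50. All listed genes were called in those directions in 5.79%, 10.5% and 14.2% of cases. The member that moved in every strain was his-70, at -2.44, 2.80 and 2.68 (from the authors' deposited table, adjusted p = 9.08e-07, 6.65e-13 and 1.29e-11). In mir-58, 2.8% of all listed genes had a lower value. Its neighbour his-69 was at -0.53, 0.19 and 0.26 (from the authors' deposited table), with no call. The H3.3 gene his-72 was at 0.19, 0.60 and 0.85, the last of which passed the threshold (from the authors' deposited table, adjusted p = 0.00543). The other well-known H3.3 gene, his-71, was at 0.31, 0.43 and 0.50 (from the authors' deposited table), with no call. The gene his-74 fell in mir-58, at -0.61 (adjusted p = 0.0304), and the authors' deposited table has it at 0.07 and 0.01 in the multiple mutants. The linker histone gene his-24 was at -0.18, 0.80 and 0.75 (from the authors' deposited table) and rose in both multiple mutants. In the annotation his-72 overlaps a small nucleolar RNA gene on its own strand, and his-24 overlaps noncoding RNAs on the opposite strand. Without a class, his-39 stood at -0.09, -0.54 and 1.01 (from the authors' deposited table), with no call.

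Members were also set out by gene structure, as a description. The 25 intronless members had medians of -0.12, 1.26 and 1.61 in the mir-58, double and quadruple mutants, and the 7 with an intron had 0.19, 0.43 and 0.50. Calls in the double mutant were 6 of the 25 and 2 of the 7, all higher, beside 10.5% of all listed genes. In the quadruple mutant they were 14 of the 25 and 3 of the 7, all higher, beside 14.2%. Among core genes alone, the 22 intronless members had medians of -0.09, 1.26 and 1.62. The 3 core members with an intron, his-35, his-37 and his-41, lie next to each other on chromosome V and had medians of 0.41, 0.42 and 0.46. Their position and their gene structure therefore cannot be told apart.

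The members fell into 15 places in the genome, counting his loci within 20 kb of each other as neighbours. Both chromosome V, with 15 members, and chromosome IV, with 9, held called genes. Medians in the quadruple mutant were 1.55 on V and 1.69 on IV. In that mutant 6 members rose on each, beside 14.2% of all listed genes called higher. Chromosome II, which has his loci in the annotation, contributed no member. In 11 cases both genes of a head-to-head pair were members. In the double mutant, where 10.5% of all listed genes were called higher, 4 of these pairs had 1 gene called higher and 7 had none. By comparison, in the quadruple mutant 3 pairs had both genes called higher, 6 had 1 and 2 had none. The median gap between the genes of a pair was 0.47 on the log2 scale in double and 0.68 in quadruple mutants. Close pairs in the quadruple mutant were his-31 with his-32 (1.69 and 1.70), his-7 with his-8 (1.61 and 1.55) and his-5 with his-6 (1.97 and 2.10), all from the authors' deposited table. The widest was his-67 with his-68 on chromosome I, at 4.61 and 0.37 (from the authors' deposited table). Unlike the other pairs, it joins an H4 gene and an H2A gene.

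**Figure D3:**
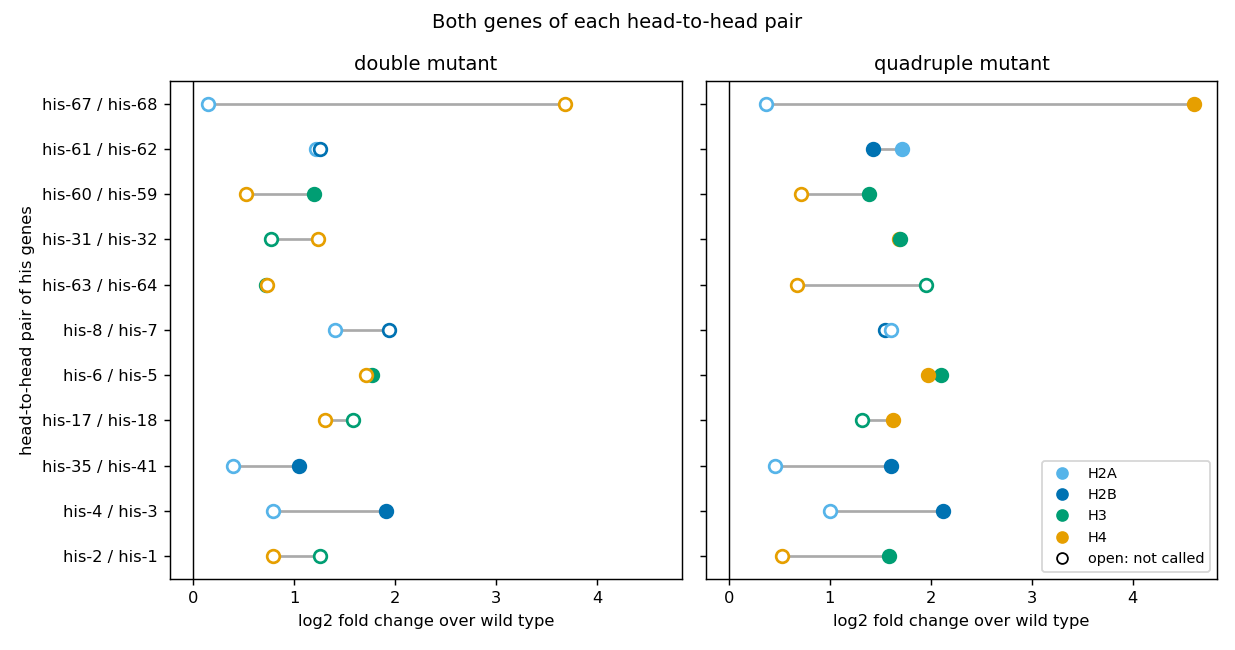
Each row is a pair of his genes that stand head to head, joined by a line between their log2 fold changes over wild type (x axis), in the double mutant (left) and the quadruple mutant (right). Colour gives the histone class and filled points were called; his-67 and his-68 are 4.24 apart in the quadruple mutant, and his-31 and his-32 are 0.01 apart.

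The strains were also compared with each other by the difference of their log2 fold changes, in which wild type cancels. This has no test. The members' median difference of double minus mir-58 was 1.32, and 30 of 32 were above 0. All listed genes had a median of 0.04 there, with 52.5% above 0. The difference of quadruple minus double had a median of 0.21 and 25 of 32 members above 0, beside a median of 0.00 and 48.6% for all listed genes. By member, double minus mir-58 ranged between -0.45 for his-39 and 5.24 for his-70, followed by 2.29 for his-7. Quadruple minus double ranged between -0.39 for his-8 and 1.55 for his-39, followed by 1.23 for his-63. Of the members named for these differences, only his-70 was called against wild type in any strain.

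Of 10 listed histone genes outside the his names, 2 fell in mir-58, 2 rose in double and 3 in quadruple mutants, with medians of -0.28, 0.44 and 0.73. All listed genes were called in those directions in 5.79%, 10.5% and 14.2% of cases. The linker histone gene hil-3 was at -0.38, 1.09 and 1.24 (from the authors' deposited table, adjusted p = 0.267, 0.000111 and 1.11e-05), and hil-2 at -0.34, 0.80 and 1.12 (adjusted p = 0.391, 0.0224 and 0.000301). The gene hil-7 rose to 1.31 in quadruple mutants (from the authors' deposited table, adjusted p = 0.035). The 2 that fell in mir-58 were hil-4 at -1.16 and hil-5 at -0.88 (from the authors' deposited table, adjusted p = 5.35e-09 and 1.51e-05). Named after their values were seen, the H2A.Z gene htz-1 and the centromeric H3 gene hcp-3 had 0.09 and 0.34 in quadruple mutants (from the authors' deposited table), with no call.

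Among 14 listed factors that process histone mRNA or handle histones, 2 fell in mir-58, 2 rose in double and 2 in quadruple mutants, with medians of -0.03, 0.32 and 0.45. Beside them stand 5.79% of all listed genes called lower in mir-58 and 10.5% and 14.2% called higher in the multiple mutants, so the count in quadruple mutants was close to the share of all genes. The chromatin remodeller gene xnp-1, related to ATRX, was at 0.59, 0.80 and 1.77 (from the authors' deposited table, adjusted p = 0.0775, 0.0193 and 1.26e-10). For hira-1, the gene of the H3.3 chaperone HIRA, values were 0.07, 0.74 and 0.75 (from the authors' deposited table, adjusted p = 0.977, 0.0417 and 0.0293). Named after its values were seen, the stem-loop binding protein gene cdl-1 had -0.09, 0.08 and 0.02 (from the authors' deposited table), with no call.

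Of 44 listed genes of DNA replication and S phase, 1 fell in mir-58, 1 rose in double and 6 in quadruple mutants, with medians of -0.05, 0.21 and 0.23. Set against 5.79%, 10.5% and 14.2% of all listed genes called in those directions, the count was close to the share of all genes in quadruple mutants and below it in mir-58 and double mutants. The cyclin A gene cya-1 had the smallest adjusted p, at 0.91 in quadruple mutants (from the authors' deposited table, adjusted p = 0.00463). There the replicative helicase gene mcm-6 was at 0.66 and the ribonucleotide reductase gene rnr-2 at 0.64 (from the authors' deposited table, adjusted p = 0.0337 and 0.0365). In mir-58 the nuclease gene crn-1 fell to -0.56 (from the authors' deposited table, adjusted p = 0.0409). Among 26 genes of histone methylation and demethylation, 1 rose in mir-58, 4 in double mutants and 6 in quadruple mutants, and no call was lower, beside 1.65%, 10.5% and 14.2% of all listed genes called higher. The H3K9 methyltransferase gene met-2 was at 0.35, 0.84 and 0.90 (from the authors' deposited table, adjusted p = 0.378, 0.00575 and 0.00231). A demethylase gene, jmjd-1.1, was at -2.77, 4.40 and 4.45 (from the authors' deposited table, adjusted p = 0.288, 1.03e-08 and 2.94e-09).

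Germline and adult markers were called in all 3 strains, where 5.79% of all listed genes were lower in mir-58 and 10.5% and 14.2% higher in double and quadruple mutants. All 13 sperm genes listed rose in both multiple mutants and 10 fell in mir-58, with medians of -3.08, 3.46 and 3.32. Their log2 fold changes spanned -4.24 to -0.65 in mir-58, 1.81 to 4.86 in double and 1.65 to 4.68 in quadruple mutants. Of 12 oocyte and eggshell genes, 6 fell in mir-58, 8 rose in double and 6 in quadruple mutants, with medians of -0.63, 1.1 and 1.04. Yolk genes (4 of 5 lower, then 3 and 2 higher) and adult cuticle genes (8 of 10 lower, then 9 and 8 higher) went the same way. Genes of germline proliferation and meiosis fell in 7 of 18 cases in mir-58. In each multiple mutant only 1 rose, the translational repressor gene gld-1, a count below the share of all listed genes. Medians of this list were -0.55, 0.33 and 0.25. Medians in mir-58 were -3.82 for adult cuticle, -3.08 for sperm, -2.17 for yolk and -0.63 for oocyte and eggshell genes. Genes of germline proliferation and meiosis stood at -0.55 there, and those of DNA replication and S phase at -0.05. In the same strain the core histone median was 0.00 and no core member was called. The part of cell composition and stage in the histone values was not tested.

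**Figure D4:**
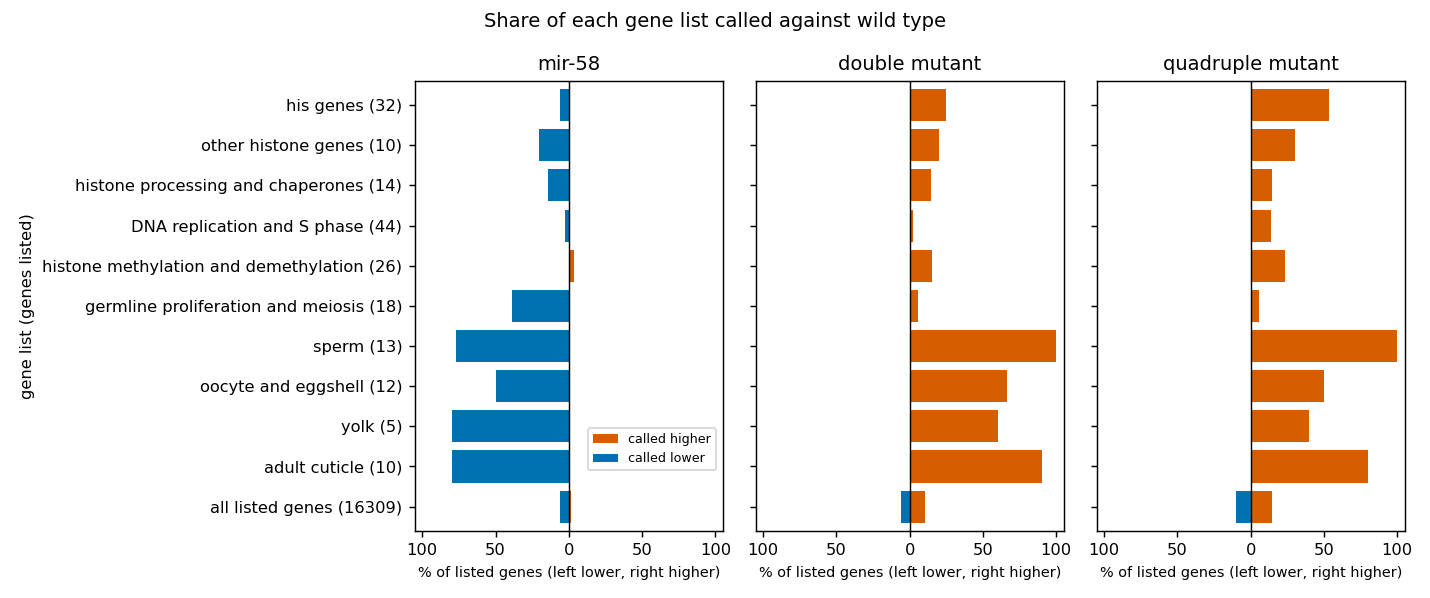
Bars give the share of each gene list (rows, with the number of genes listed) called higher (right, orange) or lower (left, blue) than wild type in each mutant, in percent. The his genes were called higher in 17 of 32 cases in the quadruple mutant, and the sperm list, all higher in both multiple mutants, was lower in 10 of 13 cases in mir-58.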

How the data were processed

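RNA of whole late L4 animals was sequenced in 12 samples, 3 for each of 4 genotypes, grouped by sample title. Per the file headers, the authors deposited log2 fold changes of 3 mutants against wild type for 16309 genes. Adjusted p-values were deposited beside them. Per the submitters' processing notes DESeq was used; its version, the aligner, the counter, the build and the p-value adjustment are not given in the sources used here. Depth per sample is unknown, and counts were not analysed here, so the planned fits to counts were not run. Calls are adjusted p under 0.05 over all listed genes. Members were found by name, and matched to Ensembl release 115 and RefSeq (both WBcel235) for loci, introns and coding lengths; no coordinates are given. Histone classes are textbook assignments. Members and the 9 other lists were chosen with earlier results of these data known. All members may be named, and of each list at most 6 genes with the smallest adjusted p; others are marked. Counting was tested on simulated data. Alternatives are given in the closing section. Python 3.11.15, numpy 2.4.6, pandas 2.3.3 and matplotlib 3.10.9 were used.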

Additional observations from a re-analysis of the deposited data

How the results depend on the processing

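No paired analysis was possible because values per sample were not analysed here. Count models, scaling and low-count filters, and fits that leave out a replicate were not run for the same reason, and merging members with an identical protein was not run because no sequences were used here. At an adjusted p under 0.01 1, 4 and 11 members were called in mir-58, double and quadruple mutants, against 2, 8 and 17. A minimum of 1.5-fold left those counts as they were. Subtracting the median of all listed genes keeps the authors' adjusted p-values. It could therefore change only the direction of a call, not the number of calls. Further alternatives on the counts were chosen after seeing the data. Core genes alone gave 0, 6 and 14 calls of 25; the 2 calls in mir-58 are H3.3-type genes. Without the 6 members that overlap another annotated gene, 2, 5 and 13 of 26 were called. The medians of -0.08, 1.12 and 1.49 became -0.03, 1.23 and 1.60 without the linker and H3.3-type genes, -0.02, 1.04 and 1.38 with the median of all genes subtracted, and -0.03, 1.02 and 1.41 with 1 value for each group of neighbours, the last chosen after seeing the data. The median differences between strains became 1.18 for double minus mir-58 and 0.18 for quadruple minus double. For these, each mutant's own median of all listed genes was subtracted first, an alternative also chosen after seeing the data. The median of all listed genes lay at 0.11 in the quadruple mutant, and no member changed direction among those called.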
